A study of Mus musculus with 12 samples.

Results

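The livers of XX mice that lack *Yap1* in their liver epithelium were compared here with livers of XX wild-type mice. The comparison rests on 6 of the 12 RNA-seq libraries of the series, 3 knockout and 3 wild type, chosen by the genotype and sex given in the labels. The 6 remaining libraries come from male mice, and they are used where the test asks whether the genotype effect differs between the sexes, in an alternative model of all 12 libraries and where a male value is named. All animals were of the C57BL/6 background and 3 to 4 months old, and no treatment is named. The knockout mice carry the Foxa3-Cre *Yap1* deletion, and the controls are labelled WT with no mention of a Cre or a floxed allele. Foxa3-Cre acts in the foregut endoderm, from which hepatocytes and bile duct cells both descend, so the deletion is not limited to one epithelial cell type and begins before birth. Macrophages, endothelial cells, stellate cells and blood cells in the same tissue are not meant to lose *Yap1* by this design. Their own *Yap1* level was not measured. Each library was made from total RNA of whole, flash-frozen liver, and knockout and wild-type livers are numbered 1 to 3 here only as names.

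YAP is a transcriptional coactivator that the Hippo kinases hold in the cytoplasm. When it enters the nucleus it works with TEAD factors, and in the developing liver it is needed for the bile ducts to form. TAZ, encoded by *Wwtr1*, is its close relative. Rodent liver is also strongly sex-dependent: the pattern of growth hormone release, read in hepatocytes by STAT5b, sets a female and a male programme of cytochrome P450 enzymes, sulfotransferases and secreted urinary proteins.

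The table lists 25676 genes in TPM (transcripts scaled to a fixed library total), a unit that corrects for gene length and sums to the same total in every library. A mean of at least 0.5 TPM in the 6 libraries left 12441 genes to test, and 8781 genes were listed at 0 in all 6. TPM carry no read totals, so the sequencing depth behind a value is not given, and values below about 1 TPM are the least secure. An indirect estimate from TPM and gene lengths gave 2.48e+07 to 3.52e+07 reads in these libraries. It put 52.3% to 58.5% of low values at whole read numbers. Between 14941 and 15482 genes were above 0 per library. The hepatocyte markers checked were abundant in every library, with *Alb* (serum albumin) at 80829, 83194 and 80628 TPM in the wild type and 50374, 66146 and 62165 TPM in the knockout. Summed TPM of 4 Y-linked genes stayed at or below 0.122 in each of the 6 libraries. Of the variance, 78.1% lay on a first principal component that separated the genotypes, and 10.1% on a second that set knockout 1 apart from knockout 2. No replicates of a group held the same values, and correlations of their log2 values ran from 0.970 to 0.990. The labels place all 12 libraries on the same lane of one flow cell and name no extraction batch, so p-values describe the spread among these 6 livers.

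The targeted gene was measured first. *Yap1* (ENSMUSG00000053110, chr9:7931999-8004596, GRCm38) stood at 23.0, 30.0 and 27.8 TPM in the wild type and 3.11, 2.44 and 2.41 TPM in the knockout. The groups did not overlap. The difference was -2.93 log2 units on the TPM as deposited, and the exact two-sided permutation test gave p = 0.1, the smallest value that 3 against 3 libraries allow. In the fit across all genes the log2 fold change was -3.23 ± 0.15 (SE) after rescaling, with a limma adjusted p of 2.16e-06. *Wwtr1*, the other YAP family member, rose from 4.85, 5.64 and 7.30 TPM to 13.4, 12.9 and 13.5 TPM (log2 change 0.74 ± 0.17 (SE), limma adjusted p = 0.0105). It was the only one of the 15 Hippo cascade genes tested that passed on both scales explained below, beside 16.1% of all tested genes that rose. On the TPM as deposited 4 of the 15 passed as higher, *Wwtr1* among them. The kinases and scaffold *Lats1*, *Lats2* and *Nf2* had log2 fold changes of -0.19, 0.05 and -0.51.

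Throughout, TPM are given as deposited and log2 fold changes are knockout against wild type on log2(TPM + 1), after each library was divided by its median-of-ratios factor. This scale understates changes of genes at low TPM. The choice of scaling matters because TPM sum to a fixed total. Major urinary protein transcripts alone made up 3.14% to 5.52% of all TPM in the wild type and 0.160% to 0.192% in the knockout. As deposited, the median gene was 0.27 log2 units higher in the knockout, and rescaling moved that median to -0.03. A gene is said to have risen or fallen only where its Benjamini-Hochberg adjusted p in limma was under 0.05 in the same direction on both scales.

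By that rule 2668 genes changed, 21.4% of those tested. Of these, 2001 genes (16.1%) rose and 667 (5.36%) fell, and 967 (7.77% of all tested) and 465 (3.74%) of them had a rescaled log2 fold change of at least 1 in size. On the deposited scale alone 4504 genes (36.2%) passed, 85.2% of them higher in the knockout. After rescaling 3552 (28.6%) passed, 56.3% of them higher. No gene passed in opposite directions. The 1836 genes that passed as higher only on the deposited scale, and the 884 that passed as lower only after rescaling, are not counted as changed here. Wild type 2 weighed on the total: without it the rule was met by 1773 genes, 1325 up and 448 down. Of the 2668 calls, 1672 held with any single library left out. Over all tested genes the groups did not overlap for 43.3% with the knockout higher and for 7.88% with the knockout lower.

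**Figure D1:**
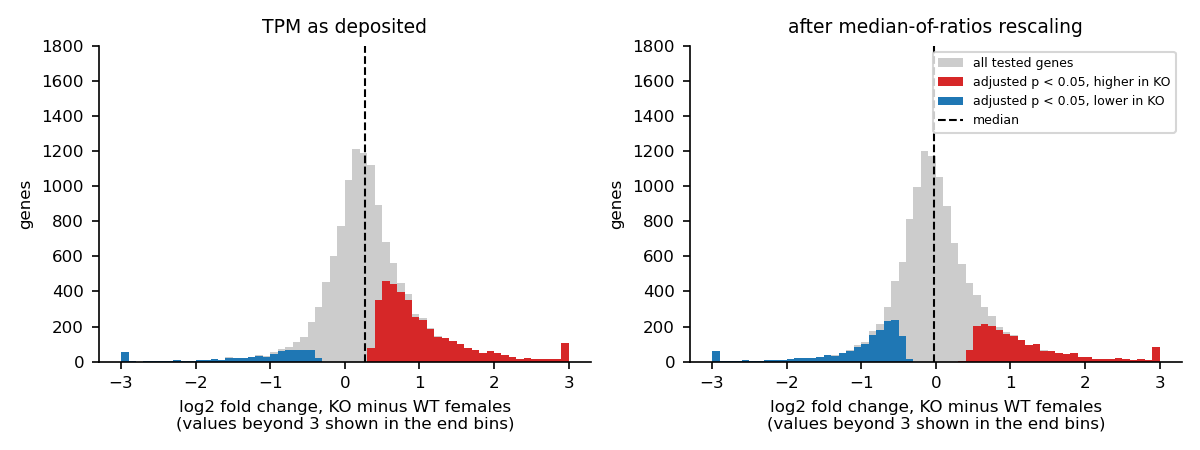
Number of genes (y axis) by log2 fold change, knockout against wild type on log2(TPM + 1), over the 12441 genes tested, as deposited (left) and rescaled (right), with genes past the adjusted threshold in colour. The deposited values centre on 0.27 and the rescaled values on -0.03, and the share of coloured genes that are higher goes from 85.2% to 56.3%.

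Among the largest rises, *Ly6d* (chr15:74762056-74763620), which encodes a small membrane-anchored Ly6 protein, was at 8.47, 3.55 and 2.67 TPM in the wild type and 849, 703 and 794 TPM in the knockout (log2 change 6.85 ± 0.31 (SE), limma adjusted p = 2.16e-06). The alpha-class glutathione transferase *Gsta1* stood at 1.55, 3.34 and 2.35 TPM in the wild type and 360, 353 and 263 TPM in the knockout (log2 change 6.29 ± 0.21 (SE), limma adjusted p = 3.51e-07), and its neighbour *Gm3776* at 1.11, 2.05 and 0.650 TPM in the wild type and 308, 309 and 267 TPM in the knockout. The last 2 are near copies of each other, and their reads may be shared between them.

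Of the other leading genes, *Sprr1a*, a cornified envelope precursor of stressed epithelia, was at 0, 0.117 and 0.0881 TPM in the wild type and 95.1, 77.9 and 54.4 TPM in the knockout. *Slpi*, a secreted protease inhibitor, was at 1.89, 0.560 and 1.32 TPM in the wild type and 131, 84.8 and 206 TPM in the knockout, and *Lcn2*, the siderophore-binding lipocalin, at 52.4, 16.7 and 18.3 TPM in the wild type and 1776, 824 and 1497 TPM in the knockout. These 3 genes had log2 fold changes of 5.94, 5.65 and 5.28 with limma adjusted p-values of 2.85e-07, 8.99e-06 and 5.62e-05. The ubiquitin-like modifier *Ubd* rose from 0.315 ± 0.167 to 67.0 ± 19.2 TPM, the calcium-binding *Cib3* from 2.66 ± 1.81 to 325 ± 62.7 TPM and the scaffold *Gipc2* from 0.169 ± 0.0746 to 54.5 ± 10.6 TPM (mean ± SD, n = 3 per group). *Lpl*, the lipoprotein lipase that adult liver normally keeps low, was at 5.82, 2.66 and 4.90 TPM in the wild type and 192, 251 and 147 TPM in the knockout (log2 change 4.87 ± 0.28 (SE), limma adjusted p = 8.51e-06). Genes that lead the rises and falls were chosen from those whose groups do not overlap, so that their separation is no result.

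Among the 15 largest falls, the most abundant in the wild type was *Mup22* (chr4:60817589-60821463), a major urinary protein, at 28037, 20789 and 34832 TPM in the wild type and 21.8, 10.6 and 20.4 TPM in the knockout (log2 change -10.92 ± 0.27 (SE), limma adjusted p = 1.17e-07). *Cyp3a41a*, a female-specific P450, was at 2209.6, 2382 and 1973 TPM in the wild type and 0.0845, 1.11 and 2.18 TPM in the knockout (log2 change -10.36 ± 0.31 (SE), limma adjusted p = 2.35e-07). *Cyp2c69*, another P450, was at 1299.9, 1699 and 1355 TPM in the wild type and 3.97, 1.88 and 8.33 TPM in the knockout. The knockout livers kept only traces of these 3 transcripts. The sulfotransferase *Sult2a8* fell from 415 ± 89.3 to 1.11 ± 0.561 TPM (log2 change -7.89 ± 0.21 (SE), limma adjusted p = 1.33e-07) and the organic anion transporter *Slco1a1* from 61.3 ± 16.6 to 0.449 ± 0.485 TPM (log2 change -5.66 ± 0.26 (SE), limma adjusted p = 2.16e-06). *Ces3b*, a carboxylesterase, fell from 297 ± 73.6 to 16.0 ± 4.56 TPM (log2 change -4.48 ± 0.23 (SE), limma adjusted p = 5.01e-06).

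**Figure D2:**
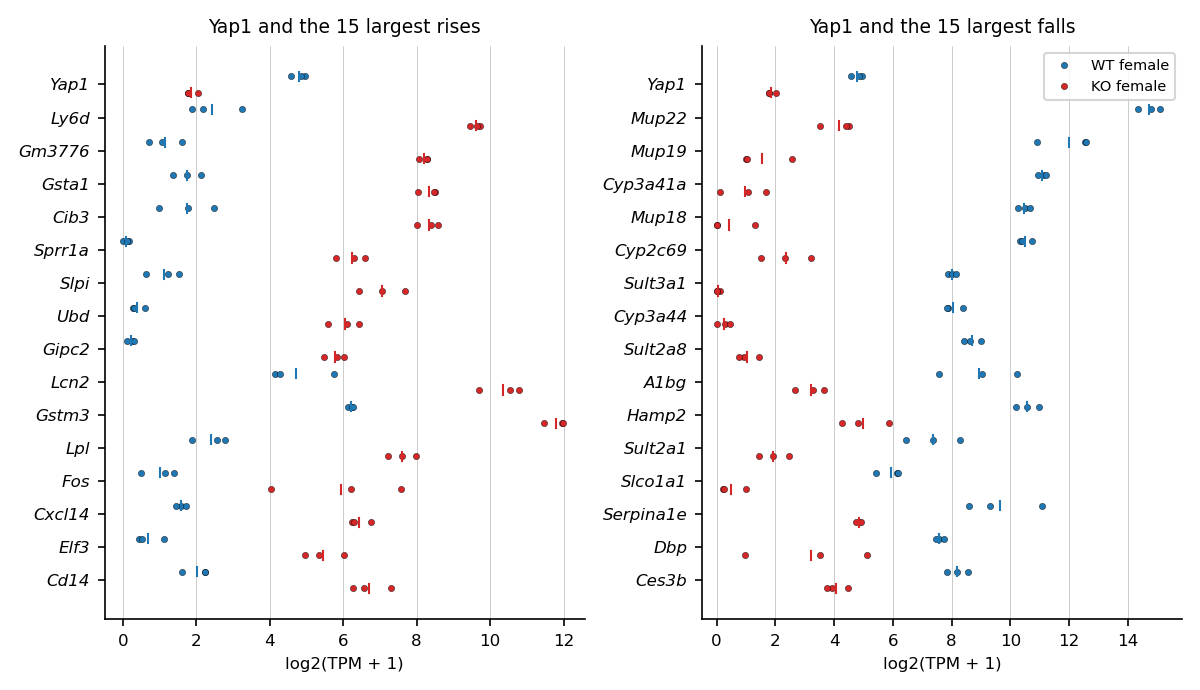
TPM (log2(TPM + 1) axis) in each of the 3 wild-type and 3 knockout livers for *Yap1* and for the 15 genes with the largest rises and the 15 with the largest falls. These genes were chosen for groups that do not overlap, and the wild-type spread is widest for *A1bg* and *Serpina1e*.

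Most genes of the female liver programme fell. Of 40 genes with higher expression in female liver, all of which were tested, 33 fell and 1 rose, against 5.36% and 16.1% of all genes. The rises numbered 3 without wild type 3. Their median log2 fold change was -2.91. Their summed expression was 12844, 15011 and 12359 TPM in the wild type and 1049.9, 1452 and 1331 TPM in the knockout. Because whole liver was sequenced, fewer cells of a type and less RNA per cell cannot be told apart, here or in the groups that follow.

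The sulfotransferase *Sult3a1* (female-specific, chr10:33857721-33879532) was at 234, 258 and 279.8 TPM in the wild type and 0.0753, 0 and 0 TPM in the knockout (log2 change -8.14 ± 0.13 (SE), limma adjusted p = 1.11e-08). *A1bg*, a female-specific secreted glycoprotein, was at 189, 527 and 1199.9 TPM in the wild type and 8.83, 11.5 and 5.32 TPM in the knockout (log2 change -6.08 ± 0.58 (SE), limma adjusted p = 1.34e-04), and its wild-type values differed widely among themselves. *Cyp2b13* was at 314, 324 and 249 TPM in the wild type and 3.90, 4.31 and 2.15 TPM in the knockout and *Cyp2b9* at 486, 444 and 532 TPM in the wild type and 56.3, 62.5 and 44.5 TPM in the knockout, so that *Cyp2b9* kept a higher share of its level. Smaller falls were measured for the female-biased repressor *Cux2* (log2 change -1.89 ± 0.40 (SE), limma adjusted p = 0.00871) and for the prolactin receptor *Prlr*, which went from 57.5 ± 4.16 to 23.6 ± 5.59 TPM (log2 change -1.61 ± 0.20 (SE), limma adjusted p = 5.67e-04). The one riser was *Ntrk2*, a neurotrophin receptor, at 0.230, 1.25 and 2.18 TPM in the wild type and 5.42, 9.16 and 8.18 TPM in the knockout.

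The 250 bases before the start of *Sult3a1* and *A1bg* are shown because both fell steeply and each window holds 1 match to the STAT5 letters TTCNNNGAA, which is in capitals. The windows are RefSeq's on GRCm38.p6, at chr10:33857472-33857721 on the plus strand and chr15:60921271-60921520 on the minus strand, written 5′ to 3′ along the gene. Matches lie 109 to 101 bases before the start of *Sult3a1* and 84 to 76 bases before that of *A1bg*.
Sult3a1: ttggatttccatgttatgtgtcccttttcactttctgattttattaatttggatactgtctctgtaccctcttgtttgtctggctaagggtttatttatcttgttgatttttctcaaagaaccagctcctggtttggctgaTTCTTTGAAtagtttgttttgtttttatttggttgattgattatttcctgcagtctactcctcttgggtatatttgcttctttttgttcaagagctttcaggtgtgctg
A1bg: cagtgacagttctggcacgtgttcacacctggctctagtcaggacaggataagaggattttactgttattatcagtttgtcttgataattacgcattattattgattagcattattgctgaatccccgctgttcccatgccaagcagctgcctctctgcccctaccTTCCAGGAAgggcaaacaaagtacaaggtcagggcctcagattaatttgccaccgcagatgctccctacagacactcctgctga
The motif is its own reverse complement and was present in 7.11% of 27025 such windows. It was in 4 of the 31 female-biased genes with a window, in 7.5% of windows of genes that fell, in 5.96% of those that rose and in 6.03% of those of genes that did not change.

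Of 25 male-biased genes listed, 23 were tested, and 14 fell while 5 rose. Their summed expression went the other way from that count, at 1876, 2061 and 3809 TPM in the wild type and 4142, 4072 and 4470.1 TPM in the knockout. The steroid enzyme *Hsd3b5* was at 6.14, 12.8 and 28.4 TPM in the wild type and 0.0562, 0 and 0.786 TPM in the knockout (log2 change -3.71 ± 0.46 (SE), limma adjusted p = 5.94e-04), and the fatty acid elongase *Elovl3* at 3.14, 3.53 and 3.34 TPM in the wild type and 0.176, 0.105 and 0.427 TPM in the knockout (log2 change -1.98 ± 0.16 (SE), limma adjusted p = 5.91e-05). These male-biased transcripts were lowered from a level that was already low in the females. *Mup20*, the male pheromone darcin, was at 94.2, 116 and 101 TPM in the wild type and 1496, 1757 and 1824 TPM in the knockout (log2 change 3.66 ± 0.16 (SE), limma adjusted p = 1.84e-06), and *Cyp2d9* at 23.8, 20.3 and 50.4 TPM in the wild type and 164, 99.5 and 116 TPM in the knockout (log2 change 1.71 ± 0.32 (SE), limma adjusted p = 0.00436). *C6*, a component of the complement attack complex, was at 8.07, 8.72 and 9.39 TPM in the wild type and 157, 159.8 and 159 TPM in the knockout (log2 change 3.70 ± 0.13 (SE), limma adjusted p = 4.04e-07), with replicates that lay close together in both groups. *Cyp4a12a*, the male fatty acid hydroxylase, stayed near 0, at 0.761, 0.117 and 0.235 TPM in the wild type and 0.934, 0.856 and 0.155 TPM in the knockout.

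Genes of growth hormone signalling were measured beside them. The hormone's receptor *Ghr* was at 165, 173 and 208 TPM in the wild type and 85.5, 115 and 84.7 TPM in the knockout (log2 change -1.29 ± 0.18 (SE), limma adjusted p = 0.0012), and its secreted effectors *Igf1* and *Igfals* had log2 fold changes of -1.02 ± 0.14 and -2.20 ± 0.21 (SE). In contrast *Igfbp1*, a stress-inducible binding protein of IGF, rose from 27.6, 44.6 and 101 TPM to 838, 1499 and 930.4 TPM (log2 change 4.02 ± 0.44 (SE), limma adjusted p = 3.03e-04), and *Socs3*, a feedback inhibitor of cytokine receptors, had a log2 fold change of 2.56 ± 0.23 (SE). The STAT5 feedback genes *Socs2* and *Cish* did not pass, with overlapping values of 6.29, 13.3 and 18.7 TPM in the wild type and 16.9, 7.38 and 13.2 TPM in the knockout for *Socs2*. *Stat5b* itself did not pass after rescaling (log2 change 0.37 ± 0.25 (SE), limma adjusted p = 0.295). *Esr1*, the oestrogen receptor, fell from 14.1 ± 2.68 to 6.53 ± 1.98 TPM (log2 change -1.33 ± 0.22 (SE), limma adjusted p = 0.00255). *Sult1e1*, which inactivates oestrogens, was at 0.234, 0.759 and 0.286 TPM in the wild type and 1.47, 3.67 and 11.7 TPM in the knockout.

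Whether the genotype effect in females differed from that in males was tested as an interaction over all 12 libraries, in which the effects share no library. On the deposited scale 102 genes passed, 0.82% of those tested, and 1097 had an unadjusted p under 0.05. Of the 102, 36 (0.289% of genes tested) had a more positive effect in females and 66 (0.531%) a more negative one. On both scales 87 passed (0.699%). For 50 of these the deposited effects did not share a sign in the sexes. That count set no minimum size on the male effect, included male effects of 0 and required no call in males. Without wild-type male 3 the deposited count was 170 in place of 102. Of the female-biased genes 30 of 40 passed on both scales, and of the male-biased genes 14 of 23. Lowest in adjusted p were the sulfotransferase *Sult3a1*, the P450 genes *Cyp3a44*, *Cyp3a41b* and *Cyp3a16*, and the transporter *Slc22a26*, at 7.72e-11, 3.37e-09, 7.59e-09, 1.96e-08 and 2.01e-08 in limma. For the first 4 the wild-type males were already at or near 0 (*Cyp3a44* 0.0465, 0 and 0.234 TPM). The transporter *Slc22a26* moved in opposite directions, from 134, 163 and 137 to 17.0, 21.2 and 18.8 TPM in females and from 0, 0.249 and 0.208 to 15.6, 9.66 and 9.65 TPM in males. Knockout females and knockout males lay closer together for it than the wild types did.

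**Figure D3:**
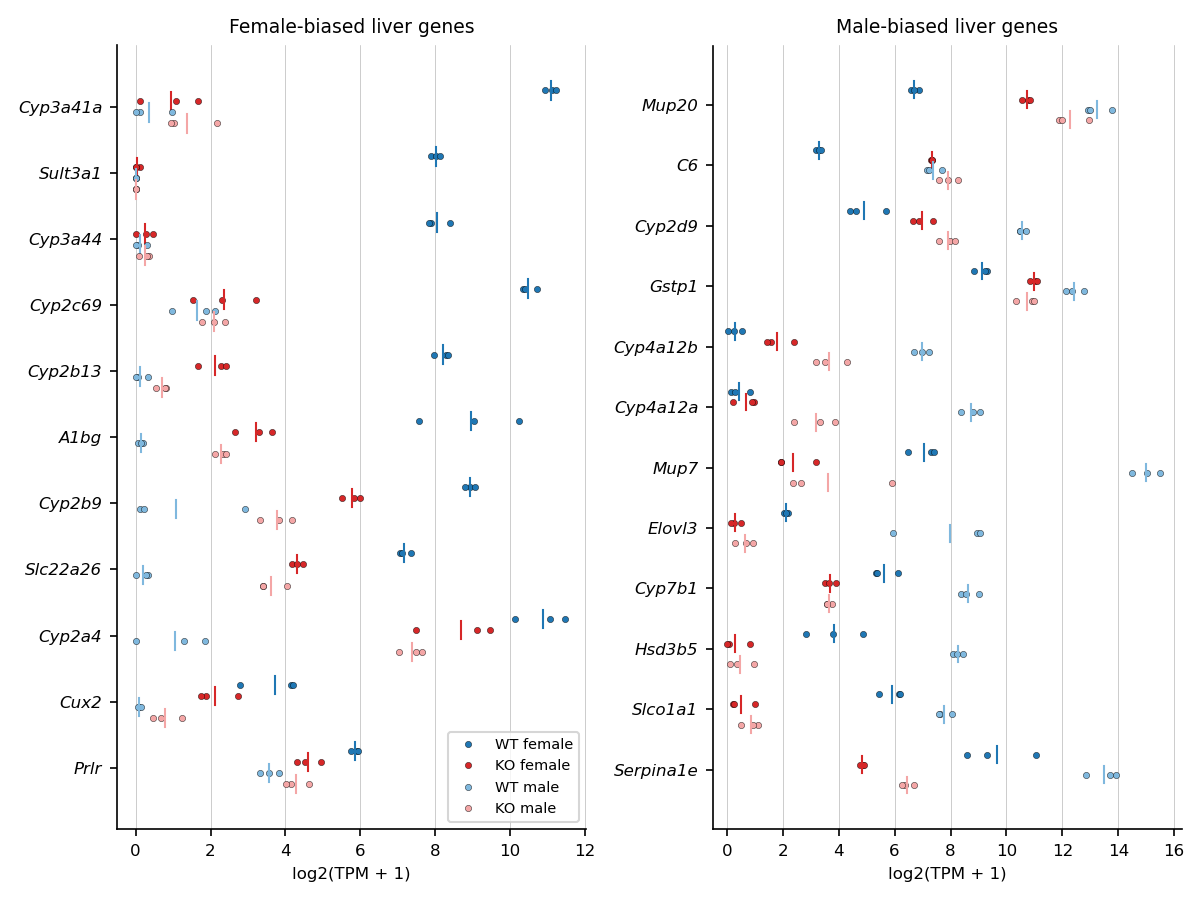
Per-liver TPM (log2(TPM + 1) axis) of female-biased and male-biased genes in the 3 wild-type and 3 knockout females, with the 3 wild-type and 3 knockout males below them and short bars at the group means. Most female-biased genes are lower in knockout females, and among male-biased genes *Mup20* and *Cyp2d9* are higher and *Hsd3b5* is lower.

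Gene families of drug and steroid metabolism were taken whole. Members of the Mup, Cyp2c, Cyp3a, Sult, Gsta and Serpina1 families are near copies, and how reads were shared among them is not stated, so the value of a single member is less certain than the family's sum. Of the 20 major urinary protein genes tested (of 22 listed), 19 fell and *Mup20* alone rose. Their summed TPM was 45844, 31385 and 55212 in the wild type and 1604, 1826 and 1922 in the knockout, and *Mup20* supplied most of what remained. *Mup12*, *Mup1*, *Mup13* and *Mup5* were listed at 0 in all knockout libraries, for which no fold is given.

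The Cyp3a family changed its makeup. *Cyp3a41a*, *Cyp3a44*, *Cyp3a41b* and *Cyp3a16* fell, the last of them from 131, 88.0 and 177 TPM to a listing of 0 in each knockout library. *Cyp3a11*, the main xenobiotic-inducible member, was at 1544, 1373 and 1818 TPM in the wild type and 7691, 7311 and 6600.2 TPM in the knockout (log2 change 1.84 ± 0.17 (SE), limma adjusted p = 1.19e-04). The family's summed TPM went up, from 4738, 4781 and 4970.2 to 8297, 7767 and 7228, while its female-specific members were nearly absent. Of 34 Cyp2 genes tested, 20 fell and 2, *Cyp2d9* and *Cyp2c55*, rose. *Cyp2c55* was at 1.17, 2.27 and 5.80 TPM in the wild type and 59.1, 60.3 and 47.3 TPM in the knockout (log2 change 3.65 ± 0.37 (SE), limma adjusted p = 2.08e-04). The Cyp2 sum was 23579, 24842 and 22103 TPM in the wild type and 6824, 9576 and 8417 TPM in the knockout. Without knockout 3, wild type 1 or wild type 2 the Cyp3a rises numbered 1 in place of 2. *Cyp4a10*, a lauric acid hydroxylase under PPAR-alpha, was at 509, 506 and 401 TPM in the wild type and 80.9, 84.7 and 90.7 TPM in the knockout (log2 change -2.80 ± 0.14 (SE), limma adjusted p = 4.65e-06).

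Conjugating enzymes split by class. Of 14 sulfotransferases 10 fell and *Sult1e1* rose, and of 17 glucuronosyltransferases 8 fell and 1 rose, among them *Ugt1a5* (from 207 ± 29.8 to 32.7 ± 4.27 TPM) and *Ugt2b1* (from 224 ± 33.0 to 39.2 ± 10.4 TPM), which both fell. Carboxylesterases gave 7 falls and 1 rise among 12. Those single rises depended on the libraries: that of *Sult1e1* was lost without knockout 2 or any one wild type, that of the glucuronosyltransferase without knockout 2, knockout 3, wild type 1 or wild type 2, and that of the carboxylesterase without knockout 3. Glutathione transferases went the other way, with 11 of 23 risen and 5 fallen. The count of falls was 3 without wild type 2 or without wild type 3. The mu-class *Gstm3* was at 69.7, 75.1 and 76.7 TPM in the wild type and 3955, 2816 and 4035 TPM in the knockout (log2 change 5.22 ± 0.15 (SE), limma adjusted p = 1.88e-07), and the family sum was 7364, 7945 and 7447 TPM in the wild type and 18203, 14499 and 18234 TPM in the knockout. All knockout sums were above all wild-type sums.

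Genes of the NRF2 antioxidant programme rose in part: 8 of 14 tested, none fallen, with a median log2 fold change of 0.71. The quinone reductase *Nqo1* was at 14, 12.9 and 10.2 TPM in the wild type and 48.5, 53.5 and 45.4 TPM in the knockout (log2 change 1.58 ± 0.15 (SE), limma adjusted p = 1.63e-04). *Srxn1*, sulfiredoxin, went from 22.8 ± 1.97 to 115 ± 35.1 TPM (log2 change 1.90 ± 0.22 (SE), limma adjusted p = 4.51e-04) and *Ephx1*, microsomal epoxide hydrolase, from 248 ± 9.46 to 892 ± 158 TPM (log2 change 1.48 ± 0.19 (SE), limma adjusted p = 6.35e-04). *Gclc*, the catalytic subunit of glutathione synthesis, did not pass after rescaling (log2 change 0.49 ± 0.24 (SE), limma adjusted p = 0.156). The letters TGACNNNGC of the antioxidant response element occurred on either strand in 10.1% of all windows. They were in 12.8% of those of genes that rose, 10% of those of genes that fell and 11.6% of those of genes that did not change.

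Genes of bile acid synthesis and uptake fell in part, and some transport genes rose. Of 17 synthesis and conjugation genes 9 fell and none rose, with a median log2 fold change of -0.73. *Cyp7a1*, the rate-limiting enzyme, was at 164, 117 and 111 TPM in the wild type and 85.9, 46.6 and 86.0 TPM in the knockout (log2 change -1.21 ± 0.24 (SE), limma adjusted p = 0.00548). *Cyp8b1*, which makes cholic acid, was at 180.4, 163 and 294 TPM in the wild type and 27.9, 40.7 and 37.4 TPM in the knockout (log2 change -2.87 ± 0.26 (SE), limma adjusted p = 1.10e-04), and *Cyp7b1*, of the acidic pathway, at 38.9, 40.5 and 68.8 TPM in the wild type and 10.5, 13.9 and 11.4 TPM in the knockout (log2 change -2.25 ± 0.24 (SE), limma adjusted p = 2.76e-04). Groups did not overlap for these 3 enzymes, as held with the knockout lower for 7.88% of all tested genes. *Cyp27a1*, *Cyp2c70* and the conjugating enzyme *Baat* did not pass, with log2 fold changes of -0.71, -0.16 and -0.26.

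The sodium-dependent uptake carrier *Slc10a1* was at 542, 503 and 642 TPM in the wild type and 155, 163 and 188 TPM in the knockout (log2 change -2.08 ± 0.16 (SE), limma adjusted p = 5.06e-05), and the second uptake carrier *Slco1b2* fell from 487 ± 67.7 to 225 ± 23.8 TPM (log2 change -1.46 ± 0.17 (SE), limma adjusted p = 4.37e-04). *Slc51b*, a subunit of the bile acid exporter of the basolateral membrane, was at 0.410, 0.798 and 1.10 TPM in the wild type and 32.9, 21.8 and 26.8 TPM in the knockout (log2 change 3.74 ± 0.19 (SE), limma adjusted p = 4.65e-06). *Abcb4*, the phospholipid flippase of the bile canaliculus, was at 90.2, 94.5 and 105 TPM in the wild type and 242, 299 and 274 TPM in the knockout (log2 change 1.13 ± 0.16 (SE), limma adjusted p = 0.00102), and *Abcc3*, another basolateral exporter, went from 124 ± 16.7 to 249 ± 43.4 TPM (log2 change 0.65 ± 0.19 (SE), limma adjusted p = 0.0342). A further basolateral exporter, *Abcc4*, was at 2.29, 2.21 and 0.731 TPM in the wild type and 3.34, 5.36 and 2.42 TPM in the knockout and did not pass on either scale (log2 change 0.55 ± 0.31 (SE), limma adjusted p = 0.224), and *Slc51a*, the partner subunit of *Slc51b*, was too low to be tested. The main canalicular bile acid pump *Abcb11* was not called, at 122, 139 and 239.7 TPM in the wild type and 255, 307 and 229 TPM in the knockout, nor was *Abcc2*, which passed as lower after rescaling alone (log2 change -0.55 ± 0.16 (SE), limma adjusted p = 0.0357). The bile acid receptor *Nr1h4* fell (log2 change -1.12 ± 0.14 (SE), limma adjusted p = 6.92e-04), as did *Nr1i3*, a xenobiotic receptor, from 189.6 ± 75.9 to 42.5 ± 12.3 TPM (log2 change -2.42 ± 0.32 (SE), limma adjusted p = 8.08e-04), while the feedback repressor *Nr0b2* had overlapping values (log2 change -0.44 ± 0.22 (SE), limma adjusted p = 0.171).

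Liver transcription factors changed selectively. *Hnf4a*, the central hepatocyte regulator, was at 208, 195 and 171 TPM in the wild type and 216, 281 and 246 TPM in the knockout and did not pass (log2 change 0.01 ± 0.16 (SE), limma adjusted p = 0.96). *Onecut1* was at 14.8, 13.6 and 16.3 TPM in the wild type and 4.29, 3.59 and 3.50 TPM in the knockout (log2 change -2.03 ± 0.14 (SE), limma adjusted p = 2.45e-05), and *Ppara*, the fasting-responsive lipid regulator, at 31.8, 51.7 and 36.5 TPM in the wild type and 10.6, 14.8 and 17.8 TPM in the knockout (log2 change -1.75 ± 0.24 (SE), limma adjusted p = 9.58e-04). *Cebpa* fell by a smaller amount (log2 change -0.91 ± 0.14 (SE), limma adjusted p = 0.00198). *Foxa3*, whose promoter drives the Cre of the knockout, was at 32.7, 42.8 and 25.8 TPM in the wild type and 67.7, 75.3 and 76.1 TPM in the knockout (log2 change 0.77 ± 0.18 (SE), limma adjusted p = 0.0143), and *Gata6* rose as well (log2 change 0.83 ± 0.15 (SE), limma adjusted p = 0.00353). In all 6 of 18 factors fell and 2 rose (1 without knockout 3), beside 5.36% and 16.1% of all tested genes.

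Of 19 pericentral genes 9 fell and none rose (2 without knockout 1), and their summed TPM went from 12459, 13444 and 12245 to 3645, 4379 and 4658. *Cyp2e1*, the ethanol-oxidising P450, was at 7618, 8025 and 7042 TPM in the wild type and 1177, 1359 and 1565 TPM in the knockout (log2 change -2.83 ± 0.18 (SE), limma adjusted p = 1.47e-05), *Cyp1a2* at 675, 627 and 757 TPM in the wild type and 195, 301 and 268 TPM in the knockout (log2 change -1.80 ± 0.21 (SE), limma adjusted p = 4.26e-04) and *Glul*, glutamine synthetase, at 839, 761 and 569.6 TPM in the wild type and 282, 425 and 437 TPM in the knockout (log2 change -1.28 ± 0.24 (SE), limma adjusted p = 0.00412). The Wnt target *Axin2* did not pass (log2 change 0.04 ± 0.21 (SE), limma adjusted p = 0.901). Among 15 urea cycle and periportal genes, 2 fell and 2 rose, beside 5.36% and 16.1% of all tested genes. *Cyp2f2*, a periportal P450, was at 911, 814 and 979 TPM in the wild type and 129, 74.2 and 79.2 TPM in the knockout (log2 change -3.64 ± 0.19 (SE), limma adjusted p = 4.47e-06), whereas *Cps1* and *Ass1* of the urea cycle had log2 fold changes of -0.12 and 0.01 and did not pass. *Cdh1*, the epithelial cadherin, rose from 15.3 ± 4.53 to 83.0 ± 1.89 TPM (log2 change 2.07 ± 0.22 (SE), limma adjusted p = 2.35e-04).

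Lipid metabolism genes changed in several directions. Of 25 oxidation genes 12 fell and 3 rose, the falls numbering 7 without wild type 2. *Cpt1a*, the gate of mitochondrial import, had a log2 fold change of -0.82 ± 0.18 (SE). *Pdk4*, which restrains glucose oxidation, rose from 2.53, 2.87 and 2.22 TPM to 18.0, 39.7 and 21.9 TPM (log2 change 2.58 ± 0.29 (SE), limma adjusted p = 3.23e-04), and *Fgf21*, a fasting and stress hormone, from 0.574 ± 0.297 to 6.35 ± 3.62 TPM (log2 change 1.92 ± 0.34 (SE), limma adjusted p = 0.00333). Of 22 synthesis genes 8 fell, a count of 5 without knockout 1 and of 4 without knockout 3 or wild type 2. *Thrsp*, a lipogenic cofactor, was at 933, 1149.6 and 407 TPM in the wild type and 68.5, 121 and 139 TPM in the knockout (log2 change -3.19 ± 0.40 (SE), limma adjusted p = 6.35e-04), while *Fasn* did not pass (log2 change -0.18 ± 0.35 (SE), limma adjusted p = 0.736). The desaturase *Scd2*, normally low in adult liver, was at 3.69, 2.83 and 2.83 TPM in the wild type and 74.3, 82.5 and 37.4 TPM in the knockout (log2 change 3.61 ± 0.27 (SE), limma adjusted p = 4.35e-05).

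The fatty acid carrier *Fabp1* was at 7358, 12986 and 4407 TPM in the wild type and 2572, 1065 and 1460.5 TPM in the knockout (log2 change -2.59 ± 0.39 (SE), limma adjusted p = 0.00156), and the scavenger receptor *Cd36* at 26.7, 25.2 and 14.1 TPM in the wild type and 90.3, 91.6 and 90.1 TPM in the knockout (log2 change 1.70 ± 0.22 (SE), limma adjusted p = 6.72e-04). The lipid droplet protein *Cidec* rose from 1.21 ± 0.774 to 6.38 ± 2.22 TPM (log2 change 1.52 ± 0.31 (SE), limma adjusted p = 0.00709), while *Plin2* overlapped (log2 change -0.26 ± 0.17 (SE), limma adjusted p = 0.297). Of 25 cholesterol synthesis genes 3 fell (1 without knockout 3) and 1, *Insig2*, rose (2 genes without knockout 1), beside 5.36% and 16.1% of all tested genes. *Insig2* went from 41.8 ± 15.4 to 189.6 ± 41.5 TPM (log2 change 1.84 ± 0.24 (SE), limma adjusted p = 8.03e-04). *Sqle*, squalene epoxidase, did not pass, at a log2 fold change of -0.30. The paired cholesterol exporters *Abcg5* and *Abcg8* fell (-1.31 ± 0.14 and -1.56 ± 0.17, SE).

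Of 18 apolipoprotein genes 3 rose and 5 fell, beside 16.1% and 5.36% of all tested genes. The falls numbered 3, 2 and 3 without wild type 1, 2 and 3. *Clu*, clusterin, was at 979, 906 and 965 TPM in the wild type and 5794, 5882 and 6269.7 TPM in the knockout (log2 change 2.30 ± 0.15 (SE), limma adjusted p = 1.62e-05), and *Pon1*, paraoxonase, fell from 1242 ± 106 to 435 ± 84.3 TPM (log2 change -1.88 ± 0.20 (SE), limma adjusted p = 2.73e-04). For glucose, *Pck1* and *G6pc* of gluconeogenesis did not pass (-0.02 and 0.45), and the hexokinase of other tissues, *Hk2*, was at 0.357, 0.221 and 0.357 TPM in the wild type and 3.63, 4.19 and 4.53 TPM in the knockout (log2 change 1.77 ± 0.16 (SE), limma adjusted p = 1.18e-04). The muscle-type pyruvate kinase *Pkm* rose (log2 change 1.43 ± 0.16 (SE), limma adjusted p = 2.83e-04). Of 29 amino acid catabolism genes 9 fell and 1 rose (3 without wild type 3), with *Afmid* and *Prodh2* at -1.79 ± 0.17 and -1.65 ± 0.12 (SE). Among iron genes, *Hamp2* was at 1174, 1989.6 and 1525 TPM in the wild type and 57.9, 18.3 and 27.5 TPM in the knockout (log2 change -5.93 ± 0.34 (SE), limma adjusted p = 8.06e-06), *Hamp*, hepcidin, at 2570.5, 2800.1 and 3119 TPM in the wild type and 2339, 858 and 1439 TPM in the knockout (log2 change -1.34 ± 0.29 (SE), limma adjusted p = 0.00871), and the hepcidin-inducing ligand *Bmp6* at 1.72, 1.83 and 1.36 TPM in the wild type and 18.9, 12.2 and 20.3 TPM in the knockout (log2 change 2.48 ± 0.19 (SE), limma adjusted p = 4.11e-05). Knockout 1 kept *Hamp* near the wild-type level and the other two did not. The *Hamp* call held in 1 of the 6 fits that left out a library.

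Among secreted plasma proteins, acute phase genes and protease inhibitors were counted separately. Of 22 acute phase genes 12 rose and 2, *Crp* and *Hamp*, fell. The falls numbered 3 without knockout 1 and 0 without any other library. Over the list, summed TPM was 20498, 20238 and 21628 in the wild type and 61320, 44140 and 50086 in the knockout. Haptoglobin, *Hp*, was at 2925, 2901 and 2168 TPM in the wild type and 15097, 12720 and 13580 TPM in the knockout (log2 change 2.03 ± 0.17 (SE), limma adjusted p = 7.86e-05). *Orm2*, an orosomucoid, was at 295, 92.1 and 59.7 TPM in the wild type and 4158, 1945 and 2409 TPM in the knockout (log2 change 4.15 ± 0.51 (SE), limma adjusted p = 5.71e-04), and *Saa1*, serum amyloid A, at 93.9, 60.7 and 53.2 TPM in the wild type and 1272, 322 and 464 TPM in the knockout (log2 change 2.73 ± 0.42 (SE), limma adjusted p = 0.00166). Knockout 1 was highest for both. *Fgg*, fibrinogen gamma, did not pass (log2 change 0.04 ± 0.19 (SE), limma adjusted p = 0.889).

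Complement genes gave 10 rises and 3 falls among 28. The rises include *C1qa*, *C1qb* and *C1qc*, which macrophages make, at log2 fold changes of 1.44, 1.65 and 1.56. The central component *C3* did not pass after rescaling (log2 change 0.68 ± 0.24 (SE), limma adjusted p = 0.0617), and *C8a* did (log2 change 1.03 ± 0.13 (SE), limma adjusted p = 6.35e-04). Of 10 Serpina1 and Serpina3 inhibitor genes 6 fell and none rose (1 without knockout 3). *Serpina1e* was at 383, 627 and 2155 TPM in the wild type and 27.9, 25.8 and 29.2 TPM in the knockout (log2 change -5.16 ± 0.52 (SE), limma adjusted p = 2.03e-04), with wild type 3 well above the other wild types, and the more abundant *Serpina3k* fell from 5084 ± 1187 to 1516 ± 388 TPM (log2 change -2.10 ± 0.24 (SE), limma adjusted p = 4.15e-04). Among 27 coagulation genes 6 rose and 4 fell, beside 16.1% and 5.36% of all tested genes. The falls numbered 1 without wild type 2 and 2 without wild type 3. Prothrombin *F2* and antithrombin *Serpinc1* did not pass (-0.29 and -0.07).

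YAP and TEAD target genes as a list did not fall with *Yap1*. Of 23 listed 19 were tested, and 7 rose while 2 fell (1 without wild type 2 or wild type 3). *Ccn1* (Cyr61), a matricellular protein, was at 7.49, 7.15 and 14.4 TPM in the wild type and 26.8, 70.8 and 61.8 TPM in the knockout (log2 change 1.96 ± 0.40 (SE), limma adjusted p = 0.00723). *Ccn2* (CTGF) was at 1.25, 1.68 and 4.79 TPM in the wild type and 5.17, 6.34 and 6.48 TPM in the knockout and did not pass after rescaling (log2 change 0.82 ± 0.34 (SE), limma adjusted p = 0.104). *Axl*, a receptor tyrosine kinase, was at 10.6, 4.71 and 7.96 TPM in the wild type and 35.1, 30.1 and 29.2 TPM in the knockout (log2 change 1.62 ± 0.24 (SE), limma adjusted p = 0.00156), and *Ccdc80* at 5.04, 2.63 and 4.73 TPM in the wild type and 30.7, 27.1 and 25.9 TPM in the knockout (log2 change 2.21 ± 0.21 (SE), limma adjusted p = 1.35e-04). *Igfbp3* fell (log2 change -1.74 ± 0.26 (SE), limma adjusted p = 0.00143). Several of these genes are also made by stellate cells and fibroblasts, whose marker genes are given further on, and their part in these values was not tested.

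The window before *Ccn1* (chr3:145649986-145650235, minus strand, GRCm38.p6) is shown because it is the best known of these targets. It holds 1 match to the TEAD letters GGAATG, read on the opposite strand as CATTCC and in capitals, 103 to 98 bases before the start.
Ccn1: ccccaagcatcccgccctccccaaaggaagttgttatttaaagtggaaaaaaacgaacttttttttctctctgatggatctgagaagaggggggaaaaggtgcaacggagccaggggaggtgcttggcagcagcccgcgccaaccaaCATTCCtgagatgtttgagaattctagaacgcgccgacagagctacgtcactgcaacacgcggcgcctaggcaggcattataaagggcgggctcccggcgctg
The letters occurred on either strand in 12.6% of all windows, 12.3% of those of genes that rose, 13.3% of those of genes that fell and 10.1% of those of genes that did not change.

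Bile duct markers behaved in 2 ways. *Krt19* and *Epcam*, which define cholangiocytes, were low in both groups, at 0.738, 1.02 and 2.07 TPM in the wild type and 0.0552, 2.17 and 1.54 TPM in the knockout for *Krt19* and 0.707, 1.03 and 1.55 TPM in the wild type and 0.476, 0.756 and 0.469 TPM in the knockout for *Epcam*. *Krt7* and *Cftr* were at or below 0.628 TPM in each library and were not tested. Yet 8 of 15 biliary genes tested (of 26 listed) rose. *Sox9*, a progenitor and duct factor, was at 1.22, 2.37 and 1.79 TPM in the wild type and 9.95, 16.2 and 7.0 TPM in the knockout (log2 change 1.78 ± 0.29 (SE), limma adjusted p = 0.00234), *Spp1*, osteopontin, at 34.0, 38.0 and 52.5 TPM in the wild type and 702, 232 and 269 TPM in the knockout (log2 change 2.73 ± 0.35 (SE), limma adjusted p = 6.72e-04) and the epithelial factor *Elf3* at 1.16, 0.360 and 0.441 TPM in the wild type and 39.4, 64.4 and 30.0 TPM in the knockout (log2 change 4.50 ± 0.30 (SE), limma adjusted p = 2.27e-05). Among these *Spp1* is also made by macrophages, whose markers rose too.

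In the keratin list 3 of 5 genes rose, in the claudin and tight junction list 12 of 17 and in the annexin list 4 of 9, beside 16.1% of all tested genes. The claudin and tight junction rises numbered 8 to 10 with any one library left out. No gene of these lists fell on both scales, though 1 annexin was lower after rescaling alone and 1 keratin fell without knockout 1. *Krt8* was at 175, 163 and 209 TPM in the wild type and 1441, 1676 and 1419 TPM in the knockout (log2 change 2.70 ± 0.17 (SE), limma adjusted p = 1.26e-05) and its partner *Krt18* at 216, 175 and 219.5 TPM in the wild type and 1449.6, 1473 and 1389.6 TPM in the knockout (log2 change 2.47 ± 0.15 (SE), limma adjusted p = 1.16e-05), both of them keratins of normal hepatocytes. *Krt23* was the third keratin to rise among the 5 tested of 49. *Cldn7* was at 0.199, 0.194 and 0.510 TPM in the wild type and 12.5, 8.57 and 14.4 TPM in the knockout (log2 change 3.07 ± 0.20 (SE), limma adjusted p = 1.96e-05), *Tjp3* rose from 6.40 ± 2.26 to 48.2 ± 7.35 TPM, and *Cldn23* was listed at 0 in each wild-type library and at 4.28, 2.92 and 4.00 TPM in the knockout. *Anxa2*, the leading annexin, was at 11.2, 9.50 and 11 TPM in the wild type and 189.7, 148 and 151 TPM in the knockout (log2 change 3.48 ± 0.13 (SE), limma adjusted p = 7.19e-07), and *S100a11* rose from 14.3 ± 2.90 to 151 ± 56.9 TPM (log2 change 2.92 ± 0.25 (SE), limma adjusted p = 7.81e-05). The S100 list gave 3 rises of 9, and 6 without knockout 2.

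Oncofetal genes, which the fetal liver and liver tumours express, rose in 8 of 11 tested cases. Alpha-fetoprotein, *Afp*, was at 1.07, 0.726 and 0.752 TPM in the wild type and 5.53, 3.24 and 4.51 TPM in the knockout (log2 change 1.30 ± 0.18 (SE), limma adjusted p = 9.10e-04), so that it remained low. *Igf2bp3*, an RNA-binding protein of fetal tissue, was at 0, 0.0868 and 0.0327 TPM in the wild type and 6.09, 3.22 and 3.19 TPM in the knockout (log2 change 2.11 ± 0.20 (SE), limma adjusted p = 1.34e-04), and *Tspan8* rose from 0.986 ± 0.665 to 11.9 ± 4.43 TPM (log2 change 2.44 ± 0.33 (SE), limma adjusted p = 8.31e-04). *Gpc3* did not pass (log2 change 0.31 ± 0.41 (SE), limma adjusted p = 0.608).

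Extracellular matrix genes rose broadly. Of 23 collagen genes tested (of 44) 16 rose and 1 fell (0 without wild type 1 or wild type 2, and 2 without wild type 3), with a median log2 fold change of 1.24. *Col1a1* was at 1.82, 3.96 and 4.29 TPM in the wild type and 65.7, 85.0 and 55.9 TPM in the knockout (log2 change 3.73 ± 0.27 (SE), limma adjusted p = 3.46e-05), *Col1a2* went from 5.77 ± 1.27 to 52.9 ± 6.14 TPM and *Col3a1* from 9.82 ± 4.39 to 75.4 ± 14.3 TPM. *Timp1*, the metalloproteinase inhibitor, was at 0.328, 0 and 0.240 TPM in the wild type and 21.2, 8.76 and 9.91 TPM in the knockout (log2 change 3.29 ± 0.27 (SE), limma adjusted p = 6.59e-05), and *Mmp12*, the macrophage elastase, at 0.189, 0.0691 and 0.0520 TPM in the wild type and 7.86, 5.78 and 6.66 TPM in the knockout (log2 change 2.63 ± 0.15 (SE), limma adjusted p = 8.51e-06). Every knockout value of these genes was above every wild-type value, as held for 43.3% of all tested genes. They were picked for large changes, so that their separation is no result. Of 25 proteinase and inhibitor genes 16 rose, of 26 matrix glycoprotein and crosslinker genes 16, and of 29 integrin and laminin genes 16, a count of 9 without wild type 2. The basement membrane nidogen *Nid1* was at 3.79, 4.12 and 5.08 TPM in the wild type and 55.6, 71.4 and 57.0 TPM in the knockout (log2 change 3.23 ± 0.18 (SE), limma adjusted p = 6.50e-06). Fibronectin, *Fn1*, which hepatocytes secrete in bulk, did not pass (log2 change -0.26 ± 0.16 (SE), limma adjusted p = 0.276).

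Cells that make matrix were examined through their markers. Of 23 stellate and myofibroblast markers 10 rose and 2 fell. The falls numbered 4 without knockout 1 and 1 without knockout 2, knockout 3, wild type 1 or wild type 3. Their summed TPM was 270.0, 234 and 304 in the wild type and 489, 358 and 438 in the knockout. *Pdgfrb* was at 2.66, 2.32 and 4.29 TPM in the wild type and 16.9, 12.4 and 15.6 TPM in the knockout (log2 change 1.68 ± 0.20 (SE), limma adjusted p = 5.24e-04). The quiescence marker *Lrat* fell (log2 change -1.09 ± 0.25 (SE), limma adjusted p = 0.0121), *Reln* did not pass, and the myofibroblast actin *Acta2* was at 1.37, 0.988 and 1.36 TPM in the wild type and 5.39, 1.65 and 11.1 TPM in the knockout, spread so widely that it did not pass after rescaling (log2 change 1.15 ± 0.44 (SE), limma adjusted p = 0.082). *Des* did not pass either. Of the markers that rose, *Col1a1*, *Fbln2* and *Loxl2* are also in the matrix lists above. The part of these cells in the matrix result was not tested. Of 20 TGF-beta genes 9 rose and 1 fell (2 without wild type 3), the rises including the ligand *Tgfb1* (log2 change 1.05 ± 0.20 (SE), limma adjusted p = 0.00451) and the receptor *Tgfbr2*, from 4.10 ± 0.566 to 20.2 ± 1.63 TPM (log2 change 1.74 ± 0.14 (SE), limma adjusted p = 6.13e-05).

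Macrophage genes rose as well. Of 21 markers 16 rose and none fell (1 without knockout 1 or wild type 3), with summed TPM of 506, 297 and 382 in the wild type and 2722, 1504 and 1699.7 in the knockout. *Cd68* was at 9.57, 5.33 and 6.33 TPM in the wild type and 51.9, 32.1 and 31.4 TPM in the knockout (log2 change 1.96 ± 0.23 (SE), limma adjusted p = 4.36e-04) and *Adgre1*, a surface marker of tissue macrophages, at 6.14, 3.96 and 3.64 TPM in the wild type and 18.8, 16.6 and 14.2 TPM in the knockout (log2 change 1.36 ± 0.19 (SE), limma adjusted p = 0.00111). *Trem2* and *Gpnmb*, of lipid-associated macrophages, had log2 fold changes of 2.92 ± 0.31 and 2.45 ± 0.16 (SE). Of the Kupffer cell markers, *Vsig4* rose, at 35.0, 16.7 and 17.9 TPM in the wild type and 92.7, 49.3 and 57.1 TPM in the knockout (log2 change 1.16 ± 0.29 (SE), limma adjusted p = 0.0179), as did *Marco* and *Cd5l*, while *Clec4f* (log2 change 0.71 ± 0.28 (SE), limma adjusted p = 0.0901) and *Timd4* did not pass, and *Timd4* stood at 4.64, 1.87 and 3.43 TPM in the wild type and 6.05, 4.34 and 2.76 TPM in the knockout. The class II genes *H2-Eb1* and *H2-Ab1* rose from 18.8 ± 4.13 to 96.3 ± 12.1 TPM and 36.8 ± 8.33 to 170.4 ± 31.4 TPM.

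None of the T cell, B cell and natural killer cell markers tested (3, 4 and 4 genes) passed on both scales in limma. As deposited alone 0, 1 and 1 of them passed, the same numbers as had an unadjusted p under 0.05, and 1 B cell marker rose without wild type 1. Among them *Cd3e* was at 0.862, 0.516 and 0.923 TPM in the wild type and 1.49, 0.709 and 0.641 TPM in the knockout. Of 9 neutrophil genes 2 rose (4 without knockout 2, 1 without wild type 2), beside 16.1% of all tested genes. *S100a8*, *S100a9* and *Retnlg* did not pass and *Ly6g* was at 0 in 5 libraries. Sinusoidal endothelial markers gave 2 rises and 0 falls of 19, beside 16.1% and 5.36% of all tested genes, with *Stab2*, *Clec4g*, *Lyve1* and *Pecam1* not passing. Those rises numbered 5 without knockout 2, 1 without knockout 1 or wild type 3 and 0 without knockout 3 or wild type 2, and the falls 2 without knockout 1. Of 5 erythroid genes only *Alas2*, of heme synthesis, rose, a call that held in 1 of the 6 fits that left out a library, and globin *Hba-a1* did not pass. The adipocyte gene *Adipoq* was at 0, 0 and 0 TPM in the wild type and 0, 0.150 and 3.73 TPM in the knockout, a trace seen in knockout 3, and *Prss2* of the pancreas was at 0 in all 6 libraries.

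Some chemokines and innate signalling genes rose, and the part of macrophages, whose markers also rose, was not tested. Of 21 chemokine genes 9 rose and 1 fell (3 without knockout 1, 2 without knockout 3 and 0 without wild type 1 or wild type 2). *Cxcl14* was at 2.02, 1.70 and 2.29 TPM in the wild type and 74.2, 77.9 and 107 TPM in the knockout (log2 change 4.55 ± 0.19 (SE), limma adjusted p = 1.32e-06), *Cxcl1*, a chemokine for neutrophils, at 6.72, 8.41 and 4.40 TPM in the wild type and 68.2, 164 and 129 TPM in the knockout (log2 change 3.63 ± 0.35 (SE), limma adjusted p = 1.39e-04) and *Ccl2*, one for monocytes, at 0.239, 0.580 and 1.49 TPM in the wild type and 14.4, 8.04 and 7.14 TPM in the knockout (log2 change 2.38 ± 0.30 (SE), limma adjusted p = 6.54e-04). *Cd14*, the lipopolysaccharide coreceptor, was at 3.66, 2.07 and 3.72 TPM in the wild type and 158, 93.0 and 76.4 TPM in the knockout (log2 change 4.37 ± 0.26 (SE), limma adjusted p = 1.07e-05). Of 16 TNF and NF-kB genes 10 rose: *Tnfrsf12a*, the TWEAK receptor, was at 7.95, 8.89 and 4.69 TPM in the wild type and 78.0, 46.1 and 66.7 TPM in the knockout (log2 change 2.66 ± 0.23 (SE), limma adjusted p = 8.47e-05), and *Relb* went from 1.15 ± 0.188 to 9.27 ± 1.56 TPM. In the IL-6 and STAT3 list 6 of 14 rose (3 without wild type 2), with the oncostatin receptor *Osmr* at 1.56 ± 0.22 (SE), while the LIF receptor *Lifr*, a female-biased gene, fell from 91.3 ± 23.0 to 17.8 ± 1.34 TPM (log2 change -2.61 ± 0.19 (SE), limma adjusted p = 2.88e-05). Of 23 interferon-stimulated genes 4 rose and 2 fell, beside 16.1% and 5.36% of all tested genes. Those rises numbered 2 without wild type 2 and 7 without knockout 3, and the falls 4 without knockout 2 and 1 without wild type 3. *Isg15* did not pass (-0.64).

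Immediate early genes rose in 11 of 14 tested cases, with a median log2 fold change of 2.45. These transcription factors are switched on within minutes by growth factors, injury and handling. *Jun* was at 6.78, 5.35 and 7.71 TPM in the wild type and 42.0, 477 and 259 TPM in the knockout (log2 change 4.20 ± 0.76 (SE), limma adjusted p = 0.00385), *Fos* at 1.20, 0.403 and 1.62 TPM in the wild type and 15.3, 189 and 73.7 TPM in the knockout (log2 change 4.67 ± 0.77 (SE), limma adjusted p = 0.00247) and *Atf3* at 1.89, 1.66 and 2.28 TPM in the wild type and 19.1, 137 and 47.9 TPM in the knockout (log2 change 3.84 ± 0.60 (SE), limma adjusted p = 0.00179). The knockout livers ranked alike for all 3, with knockout 1 lowest and knockout 2 highest, and the difference between those 2 livers was larger than that between knockout 1 and the wild type for *Jun*. The same order held for *Egr1*, at 6.70, 9.82 and 8.16 TPM in the wild type and 33.2, 475 and 254 TPM in the knockout (log2 change 3.80 ± 0.83 (SE), limma adjusted p = 0.00937). How quickly each liver was frozen is not given in the sources used here, and its part in these values was not tested.

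*Sprr1a*, among the largest risers, has 2 matches to the AP-1 letters TGANTCA in its 250 base window (chr3:92485882-92486131, minus strand, GRCm38.p6), 146 to 140 and 116 to 110 bases before the start. The window is shown with those matches in capitals.
Sprr1a: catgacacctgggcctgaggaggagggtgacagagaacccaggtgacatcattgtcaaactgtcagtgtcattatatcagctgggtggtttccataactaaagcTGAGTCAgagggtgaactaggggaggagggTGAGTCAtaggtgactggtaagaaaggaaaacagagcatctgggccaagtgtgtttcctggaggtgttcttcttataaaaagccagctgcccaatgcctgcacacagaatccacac
On either strand the letters occurred in 6.87% of all windows, in 6.48% of those of genes that rose, 7.31% of those of genes that fell and 3.95% of those of genes that did not change. *Sprr1a* did not follow the order of *Jun* among the knockout livers, being highest in knockout 1.

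Among stress and growth control genes, *Cdkn1a*, the p21 inhibitor of the cell cycle, was at 0.928, 0.763 and 1.36 TPM in the wild type and 25.2, 93.8 and 34.7 TPM in the knockout (log2 change 4.21 ± 0.44 (SE), limma adjusted p = 2.33e-04), and *Gdf15*, a stress cytokine, at 5.97, 5.65 and 4.14 TPM in the wild type and 21.4, 250.3 and 79.7 TPM in the knockout (log2 change 3.31 ± 0.73 (SE), limma adjusted p = 0.0102), again lowest in knockout 1 and highest in knockout 2. Of 17 p53 targets and inhibitors 6 rose, *Mdm2* by a small step (log2 change 0.48 ± 0.14 (SE), limma adjusted p = 0.0353). Of 18 unfolded protein and integrated stress genes 4 rose, beside 16.1% of all tested genes. *Asns*, asparagine synthetase, was at 0.476, 0.848 and 0.581 TPM in the wild type and 7.51, 5.68 and 6.01 TPM in the knockout (log2 change 1.95 ± 0.16 (SE), limma adjusted p = 5.99e-05), and the chaperone *Hspa5* and the factor *Xbp1* did not pass (-0.05 and -0.50).

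Cell division genes rose from a very low level. Of 27 replication and mitosis genes 18 rose and none fell, with a median log2 fold change of 0.98. *Mki67* was at 0.530, 0.441 and 0.346 TPM in the wild type and 4.34, 4.05 and 2.19 TPM in the knockout (log2 change 1.42 ± 0.21 (SE), limma adjusted p = 0.00135), *Top2a* at 0.632, 0.542 and 0.803 TPM in the wild type and 5.28, 3.50 and 3.05 TPM in the knockout (log2 change 1.33 ± 0.18 (SE), limma adjusted p = 8.85e-04) and *Cdc20* at 0.487, 0.421 and 1.39 TPM in the wild type and 12.3, 7.23 and 4.86 TPM in the knockout (log2 change 2.09 ± 0.30 (SE), limma adjusted p = 0.00128). *Ccnd1*, cyclin D1, overlapped between groups, at 87.4, 87.9 and 27.8 TPM in the wild type and 58.6, 104 and 71.7 TPM in the knockout. Which cells divide cannot be read from whole liver. Among 8 genes of the EGF receptor system, 5 ligands rose and 2 of 3 receptors fell. The ligand *Hbegf* was at 1.18, 0.278 and 0.508 TPM in the wild type and 6.23, 11.7 and 4.69 TPM in the knockout (log2 change 2.09 ± 0.33 (SE), limma adjusted p = 0.00191), *Btc* rose from 0.856 ± 0.423 to 10.5 ± 1.73 TPM, and *Areg* was listed at 0 in each wild-type library and at 0.645, 1.54 and 1.70 TPM in the knockout. The receptor *Egfr* was at 57.1, 59.5 and 53.7 TPM in the wild type and 25.5, 43.4 and 33.2 TPM in the knockout (log2 change -1.09 ± 0.21 (SE), limma adjusted p = 0.0055), and *Erbb4* fell too. The 5 rises numbered 3 without wild type 1 or without wild type 2, and the receptor falls 0 without wild type 2 and 1 without wild type 3.

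Circadian genes were examined after *Dbp* appeared among the largest falls, so this list of 19 genes was chosen after their values were seen. *Dbp*, a PAR-domain activator and an output of the clock, was at 189, 213 and 175 TPM in the wild type and 10.6, 0.960 and 33.4 TPM in the knockout (log2 change -4.71 ± 0.80 (SE), limma adjusted p = 0.0029). *Per3*, a period gene, was at 18.5, 24.9 and 14.3 TPM in the wild type and 1.87, 0.311 and 3.19 TPM in the knockout (log2 change -3.25 ± 0.36 (SE), limma adjusted p = 3.42e-04). *Arntl* (BMAL1), which peaks in antiphase to them, was at 0.439, 0.458 and 1.03 TPM in the wild type and 12.7, 19.8 and 7.36 TPM in the knockout (log2 change 2.80 ± 0.32 (SE), limma adjusted p = 3.88e-04). *Tef*, *Hlf*, *Ciart*, *Bhlhe41*, *Nr1d2* and *Per2* also fell, *Npas2*, *Clock* and *Nfil3* rose, and *Nr1d1*, *Per1* and *Cry1* did not pass. Of the 6 fits that left out a library, the *Clock* call held in 1, that of *Per2* in 2, *Nr1d2* in 4 and *Nfil3* in 5. Within the knockout the livers ranked oppositely for *Dbp* and *Arntl*: knockout 2 had the lowest *Dbp* and the highest *Arntl*, and knockout 3 the reverse. The time of day at which livers were taken is not given in the sources used here. In wild-type males *Arntl* was at 15.5, 14.2 and 0.446 TPM and *Dbp* at 0.745, 1.15 and 206 TPM, so both also varied within a genotype. In knockout males *Dbp* was at 1.91, 46.0 and 1.31 TPM and *Arntl* at 17.9, 5.41 and 23.6 TPM. The part of sampling time in these values was not tested.

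The 250 bases before *Per3* (chr4:151044666-151044915, minus strand, GRCm38.p6) are shown because they hold 2 matches, in capitals, to TTATGTAA, the D-box letters that DBP, TEF and HLF bind. These lie 205 to 198 and 158 to 151 bases before the start.
Per3: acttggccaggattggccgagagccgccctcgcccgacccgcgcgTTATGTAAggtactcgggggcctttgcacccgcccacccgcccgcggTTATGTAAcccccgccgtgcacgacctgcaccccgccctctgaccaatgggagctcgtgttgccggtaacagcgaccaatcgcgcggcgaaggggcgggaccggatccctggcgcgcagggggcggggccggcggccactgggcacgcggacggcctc
The D-box letters occurred on either strand in 0.87% of all windows. Among tested genes they were in 12 of the 520 windows of genes that fell (2.31%), 8 of the 1543 of genes that rose (0.518%) and 0.373% of those of genes that did not change. The 12 were *Acsm3*, *Apol7a*, *Ces1b*, *Ces1c*, *Ces1e*, *Coq10b*, *Per3*, *Phf19*, *Slc16a12*, *Slc17a1*, *Ugt2b1* and *Zfp874a*, named because they make up that count. These shares are descriptions of chosen letters, and no test was made of them.

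**Figure D4:**
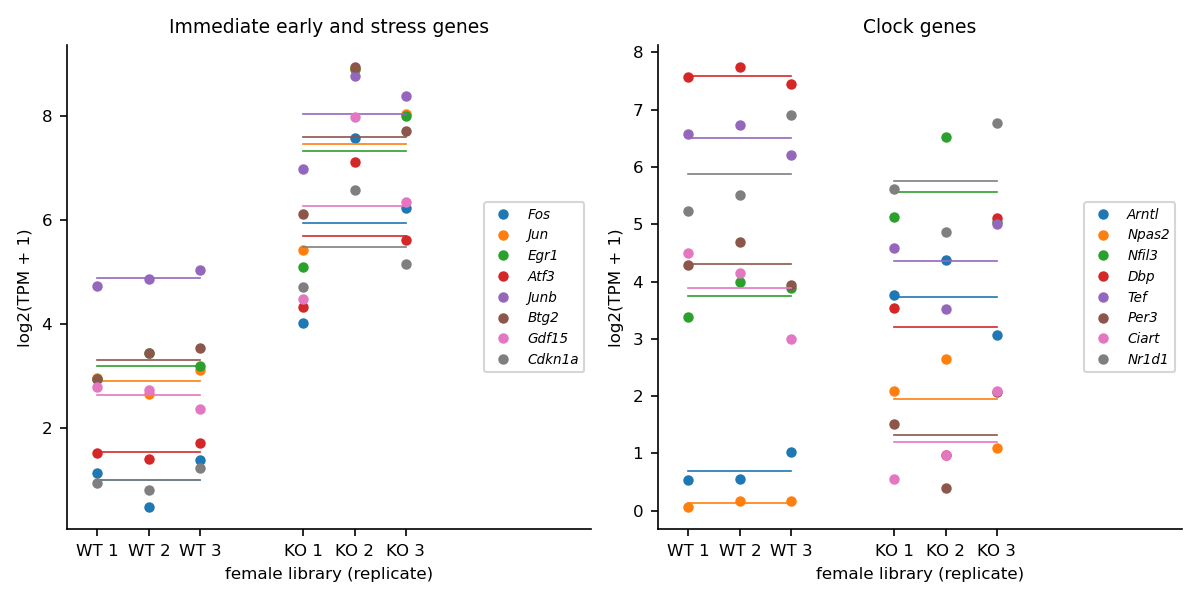
TPM (log2(TPM + 1) axis) of immediate early genes and of clock genes in each of the 3 wild-type and 3 knockout livers, with lines at the group means. Knockout 1 is the lowest and knockout 2 the highest of the knockouts for *Jun*, *Fos* and *Egr1*, and *Dbp* and *Arntl* run in opposite order.

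None of the 78 cytosolic ribosomal protein genes passed on both scales, nor any of the 13 mitochondrially encoded transcripts, by limma. A single ribosomal protein gene rose without knockout 2, and 1 mitochondrial transcript fell without it. On the deposited scale 7 of the former and 0 of the latter had an unadjusted p under 0.05. The median log2 fold changes of these lists were -0.19 and -0.48. Among 42 proteasome subunits 1, *Psmd8*, rose (log2 change 0.79 ± 0.15 (SE), limma adjusted p = 0.00464), beside 16.1% of all tested genes. After rescaling alone 5 subunits were lower, and without knockout 1 there were 2 rises and 1 fall. Of 75 nuclear respiratory chain genes 5 fell on both scales, beside 5.36% of all tested genes. On the rescaled values 32, those 5 included, passed as lower, beside 12.5% of all tested genes, and the median log2 fold change of the whole list was -0.50. The count on both scales was 0 without knockout 3, wild type 1 or wild type 2, 2 without wild type 3 and 13 without knockout 1. In the Notch list only *Sox9* rose among 13 genes, beside 16.1% of all tested genes, with *Jag1*, *Notch2* and *Hes1* not passing. Rises in that list numbered 3 without knockout 1 or without knockout 2. In the Wnt list 5 of 18 rose and *Lgr5* fell, beside 16.1% and 5.36% of all tested genes. The *Lgr5* call was lost with any one library left out. The Wnt list rises numbered 2, 3 and 3 without wild type 1, 2 and 3.

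**Figure D5:**
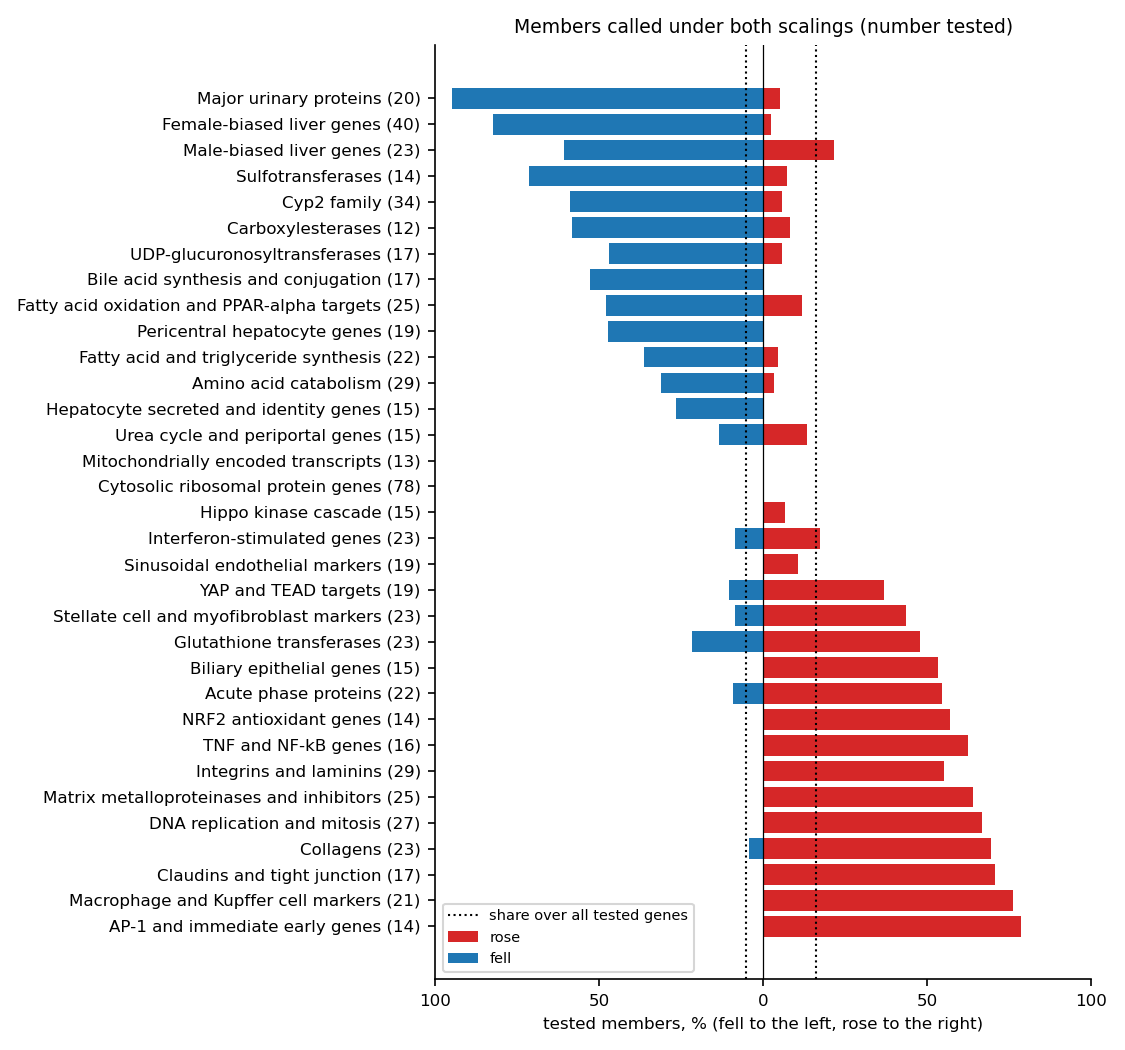
Percentage of the tested members of each gene list that fell (left) or rose (right) on both scales, with dotted lines at the shares over all tested genes (5.36% and 16.1%). Major urinary proteins, female-biased genes and sulfotransferases reach furthest left, and immediate early genes and macrophage markers furthest right.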

How the data were processed

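RNA-seq of whole liver was available as one table of TPM per gene for 12 livers, 3 in each of 4 groups of genotype and sex. The values used are TPM as the authors deposited them, per the file headers. The submitters' processing notes name edgeR and GRCm38 without saying for which step, and the aligner, the counter and its use of strand are not given in the sources used here. TPM hold no read totals, so the depth is known only by an indirect estimate, and reads of antisense partners and near-identical genes may be mixed. TPM were tested on log2(TPM + 1) with limma 3.58.1 (R 4.3.3; empirical Bayes with an intensity trend, Benjamini-Hochberg over 12441 genes with a mean of at least 0.5 TPM in the 6 female libraries, threshold 0.05). The fit was made as deposited and again after dividing each library by its median-of-ratios factor over genes above 0 in all 6, and a gene counted as changed when it passed in the same direction in both. Whether the genotype effect differed between the sexes was tested in a limma model of 4 group means over 12 libraries. The *Yap1* level alone was tested by exact permutation. The fits were tested on simulated data. Alternatives were other pseudocounts, filters, scalings and variance settings, the model of 12 libraries, a fold requirement, 2 against 2 livers by animal number, and leaving out each library.

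Genes named by rule are *Yap1*, the 15 largest rises and 15 largest falls whose groups do not overlap (at most 3 from one family), 5 genes whose effect differed most clearly between the sexes by adjusted p, and from each of 76 lists the marked members and up to 3 others with the largest called changes. *Crp*, *Fbln2*, *Marco* and *Cd5l* were named outside that rule, as were *Timd4*, *Adipoq* and *Prss2* from a list of cell type markers. The comparison, the lists and the marked members were chosen with earlier results of these data known. Chosen after their values were seen were the clock genes, the fallen genes with a D-box match, *Ntrk2*, *Cyp3a11*, *Cyp2c55*, *C1qa*, *C1qc*, *Gata6*, *Igf2bp3*, the 4 Mup genes listed at 0, and the promoter letters searched. Of the gene identifiers 25635 matched GENCODE mouse release 21, whose GRCm38 coordinates are given. Promoter windows of 250 bases are from RefSeq on GRCm38.p6, and 9840 tested genes had one by symbol. Some genes that the rule selects are not reported here.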

Additional observations from a re-analysis of the deposited data

Results flagged for a closer look

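The effect of the knockout differed between females and males for 102 genes in the limma interaction test on TPM as deposited. The 29 named genes given here passed on both scales. Values below are the female effect minus the male effect in log2 units. Where a group was at 0 TPM the value depends on the pseudocount of 1.

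For 19 named genes the difference was below 0. P450 genes had values of -11.15 for *Cyp3a41a*, -8.58 for *Cyp2c69*, -7.90 for *Cyp3a44*, -7.20 for *Cyp3a41b*, -7.00 for *Cyp3a16*, -6.67 for *Cyp2b13*, -5.95 for *Cyp2c40*, -5.84 for *Cyp2b9* and -3.67 for *Cyp17a1*. Conjugating and oxidising enzymes had values of -7.97 for *Sult3a1*, -5.83 for *Sult2a1*, -1.40 for *Fmo1*, -3.16 for *Ugt2b37* and -2.46 for *Ugt1a5*. Transporters, a receptor and secreted proteins had values of -6.29 for *Slc22a26*, -3.77 for *Slc22a27*, -1.98 for *Prlr*, -7.89 for *A1bg* and -4.16 for *Hamp2*. *A1bg* moved in opposite directions, from 189, 527 and 1199.9 to 8.83, 11.5 and 5.32 TPM in females and in males from 0.0424, 0.152 and 0.107 to 4.01, 4.34 and 3.31 TPM.

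For 10 named genes the difference was above 0: 6.67 for *Mup7*, 5.80 for *Cyp4a12a*, 5.53 for *Elovl3*, 4.97 for *Mup20*, 4.70 for *Cyp2d9*, 4.24 for *Hsd3b5*, 3.48 for *C6*, 3.08 for *Cyp7b1*, 3.00 for *Alas2* and 1.31 for *C8a*. For *Mup20* the females rose from 94.2, 116 and 101 to 1496, 1757 and 1824 TPM, whereas the males went from 7821, 8091 and 13937 to 3775, 7848 and 4097 TPM. *Elovl3* and *Hsd3b5* were lower in the knockouts of both sexes, from a higher level in males. Of the 87 genes that passed on both scales, 50 had deposited effects that did not share a sign in the sexes, with no call required in males. The groups hold 3 livers each, so single outlying livers were not sought.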

How the results depend on the processing

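The scaling moved the balance of calls: 85.2% of calls were higher in the knockout as deposited (3837 against 667) and 56.3% after rescaling (2001 against 1551), and without the 20 most abundant genes the deposited calls were 3454 higher and 739 lower. Requiring a log2 fold change of 1 or more in size left 1784 genes as deposited, 1455 rescaled and 1253 on both scales. Leaving out each library in turn gave 3072 to 4531 calls as deposited, 2260 to 3484 rescaled and 1773 to 2688 on both scales, each lowest without wild type 2. The interaction count ranged from 73 to 170, highest without wild-type male 3, and the cause of these shifts was not tested. The *Yap1* difference ranged from -2.85 to -3.04 with a library left out, and was -3.12 with a pseudocount of 0.5 and -3.23 after rescaling. Other pseudocounts, filters and variance settings, the model of 12 libraries and the 2 against 2 comparison kept the counts of female calls within 1.5 times, and rescaling, a pseudocount of 0.5 and a filter over 12 libraries gave 96, 110 and 112 interaction calls. Among 371 named genes in the fits, none that was called changed direction, while some that were not called, such as *Stab2*, *Clec4g*, *Reln* and *Cd3e*, changed sign under rescaling. On the deposited fit, rescaling ended 15 calls and added 10, the 2 against 2 comparison ended 17 and added 9, leaving out 1 library ended 10 to 28, and a pseudocount of 0.5 changed none. Medians of the 76 gene lists moved by more than the replicate spread for 66 lists under rescaling, 19 with a pseudocount of 0.5, 23 in the 2 against 2 comparison, 11 without the 20 most abundant genes, 0 in the model of 12 libraries and 8 to 18 with 1 library left out. No paired analysis was possible because the labels give the libraries no shared replicate numbers. Depth limits genes near 1 TPM, for which TPM give no counting error.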

Other observations

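Of 14 tested Slc22 organic ion transporter genes 6 fell and none rose (2 without knockout 1), with a median log2 fold change of -0.90. *Slc22a30* went from 76.0 ± 7.0 to 19.2 ± 3.04 TPM (mean ± SD, n = 3). Among 7 flavin monooxygenase and aldehyde oxidase genes 3 rose and 2 fell. *Aox1*, an aldehyde oxidase, was at 14.6, 15.9 and 13.4 TPM in the wild type and 36.6, 52.8 and 44.8 TPM in the knockout. Every knockout was above every wild type, as held for 43.3% of all tested genes. Of 30 histocompatibility genes 9 rose and 1 fell (0 without knockout 2, knockout 3, wild type 1 or wild type 2), and the class I-like *H2-Q1* was at 2.38, 4.36 and 7.22 TPM in the wild type and 52.1, 62.0 and 54.9 TPM in the knockout (log2 change 3.11 ± 0.30 (SE), limma adjusted p = 1.42e-04). Of 20 Toll-like receptor pathway genes 8 rose and none fell (1 without knockout 2), *Irak3*, an inhibitor of this signalling, from 0.661 ± 0.236 to 6.45 ± 1.45 TPM.

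Macrophage markers also rose, and their part in the immune genes was not tested. Of 10 tested genes of cilia and cholangiocyte secretion only *Bicc1*, an RNA-binding protein, rose, beside 16.1% of all tested genes. *Bicc1* was at 0.995, 0.951 and 1.97 TPM in the wild type and 8.99, 7.58 and 7.82 TPM in the knockout (log2 change 1.75 ± 0.20 (SE), limma adjusted p = 3.57e-04). Without wild type 3 the cilium and secretion list had 2 rises and 1 fall.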
